A study of Homo sapiens and Mus musculus with 21 samples.

Results

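The genes described here are 10 targets of the hypoxia-inducible factors (HIFs) that act outside glycolysis: EGLN1, EGLN3, P4HA1, P4HA2, BNIP3, BNIP3L, KDM3A, VEGFA, ANKRD37 and AK4. They were chosen by name from knowledge of HIF targets, out of 29653 gene symbols in either bulk RNA table, and with earlier results of these data known. All 10 were listed in the ciclopirox table and, under their mouse symbols, in both thymus matrices. The hairpin table held 9 of them, and P4HA2 was not analysed there. The series studied DHX15, a DEAH-box RNA helicase that works in pre-mRNA splicing and ribosome assembly, in 21 samples. CUTLL1 is an established human line of T-ALL, the acute lymphoblastic leukemia of T-lineage cells. It was infected with a lentiviral hairpin against GFP (shGFP, the control) or with 1 of 2 DHX15 hairpins, shDHX15-1 or shDHX15-2, with 3 RNA-seq libraries each. The same line was treated with DMSO or with ciclopirox at 5 µM, again with 3 libraries each. Ciclopirox is an antifungal compound and an iron chelator. RNA immunoprecipitation (RIP) from CUTLL1 comprised 2 DHX15 antibody libraries, 1 IgG and 1 input, and single thymus cells came from 1 library of floxed mice (DHX15-flox) and 1 of knockout mice (DHX15-KO), all 6 weeks old. The time after infection or treatment, the Cre driver and the deleted exons are not named in the labels. The labels do not state that replicate libraries were separate cultures, and p-values then measure only the spread between these samples, which may be technical.

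HIFs are transcription factors made of an oxygen-regulated alpha subunit and the partner ARNT. In the presence of oxygen and iron, the prolyl hydroxylases encoded by EGLN1, EGLN2 and EGLN3 modify the alpha subunit, the VHL ubiquitin ligase binds it, and it is degraded. When hydroxylation fails, HIF accumulates and binds the hypoxia response element of its target genes, whose core reads ACGTG or GCGTG. EGLN1 and EGLN3 are themselves HIF targets and so form a feedback loop, while the other genes described here act in collagen synthesis, mitophagy, histone demethylation, blood vessel growth and nucleotide balance.

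The core motif was sought on both strands of the RefSeq promoter windows, which run from 250 bases before to 50 bases after a start site (GRCh38.p14). Windows of 8 of the 10 genes were in the table; VEGFA and BNIP3L were not matched. ACGTG or GCGTG was present in any window of 6 of these 8 genes, or 75%, beside 52.4% of the 27305 genes with a window. Genes differ in their number of windows. Counted by window, 10 of the 12 windows of these genes held either form (83.3%), beside 48.4% of all 35116 windows. AK4 and KDM3A had more than a single window, and the AK4 stretch below comes from the first of its windows by position. With ACGTG alone the numbers were 5 of 8 genes (62.5%) and 24.9% of all genes. The windows of EGLN3 and P4HA2 held neither form. A match describes the letters only and is not a binding site. The stretches below show how the motif lies upstream of 4 of the genes, each 5′ to 3′ on the gene's strand with the motif of either strand in capitals (CACGT and CACGC are the 2 forms read from the other strand). BNIP3 is shown for its cluster of 6 matches (CACGTG counts once on each strand), AK4 because its RNA level changed most, and EGLN1 and P4HA1 as genes with a single motif.
BNIP3, chr10:131982003-131982086, minus strand: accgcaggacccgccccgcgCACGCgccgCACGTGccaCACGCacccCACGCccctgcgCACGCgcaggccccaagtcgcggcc
AK4, chr1:65147387-65147484, plus strand: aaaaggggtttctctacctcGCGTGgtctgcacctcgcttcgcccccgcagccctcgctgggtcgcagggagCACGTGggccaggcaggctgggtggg
EGLN1, chr1:231422288-231422320, minus strand: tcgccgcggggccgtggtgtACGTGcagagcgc
P4HA1, chr10:73096928-73096972, minus strand: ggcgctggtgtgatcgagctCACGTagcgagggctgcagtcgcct

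DHX15 itself was measured first, as a check of the hairpin labels. Its level was 42.8, 44.1 and 43.2 RPKM (reads scaled by gene length and library size) in the shGFP libraries, 17.1, 17.3 and 16.5 RPKM with shDHX15-1, and 16.1, 16.5 and 16.8 RPKM with shDHX15-2. It fell by 1.30 and by 1.34 on the log2 scale with the 2 hairpins. The hairpin libraries held 57242435 to 60354212 reads in genes, recovered from the deposited values, and the ciclopirox experiment 32451469 to 37177509. Of 8 T-ALL defining markers the hairpin experiment listed 7, and CD3D, the most abundant of them, stood at 257 ± 17.3 RPKM (SD, n = 3) with shGFP. The 7 summed to 541 to 581 RPKM with shGFP, 684 to 690 with shDHX15-1 and 742 to 766 with shDHX15-2. CD1A and CD5 among them had lower means with both DHX15 hairpins than with shGFP. Of 20 markers of B, myeloid, erythroid, stromal and epithelial cells, 4 were listed (CD79A, CD79B, CD68 and CSF1R). Their summed level was 28.8 to 29.6 RPKM with shGFP, 42.0 to 44.3 with shDHX15-1 and 65.2 to 66.5 with shDHX15-2, most of it CD79A, and its part in the results below was not tested. In the ciclopirox experiment the 8 T-ALL markers summed to 58592.4 to 69526.1 normalised counts with DMSO and 52082.5 to 59057.6 with ciclopirox. The 11 listed markers of other cell types summed to 1096 to 1518 with DMSO and 1450 to 1870 with ciclopirox. In such bulk samples, fewer cells of a type and less RNA per cell cannot be told apart.

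All 9 listed HIF targets rose with both DHX15 hairpins. By limma on log2(RPKM + 1), with calls made where the p adjusted over all genes was under 0.05, 9 of 9 were higher with shDHX15-1, beside 45.4% of all genes tested, and 9 of 9 with shDHX15-2, beside 35.6%. For each gene and each hairpin, all 3 knockdown libraries lay above all 3 shGFP libraries, as they did in 46.4% and 37.8% of all genes tested. The median log2 fold change of the 9 genes was 1.61 with shDHX15-1 and 0.90 with shDHX15-2, while that of all 15022 genes tested was 0.09 and 0.03. Both comparisons share the 3 shGFP libraries. All 9 genes kept their rise in each of the 17 alternative settings of each comparison.

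**Figure D1:**
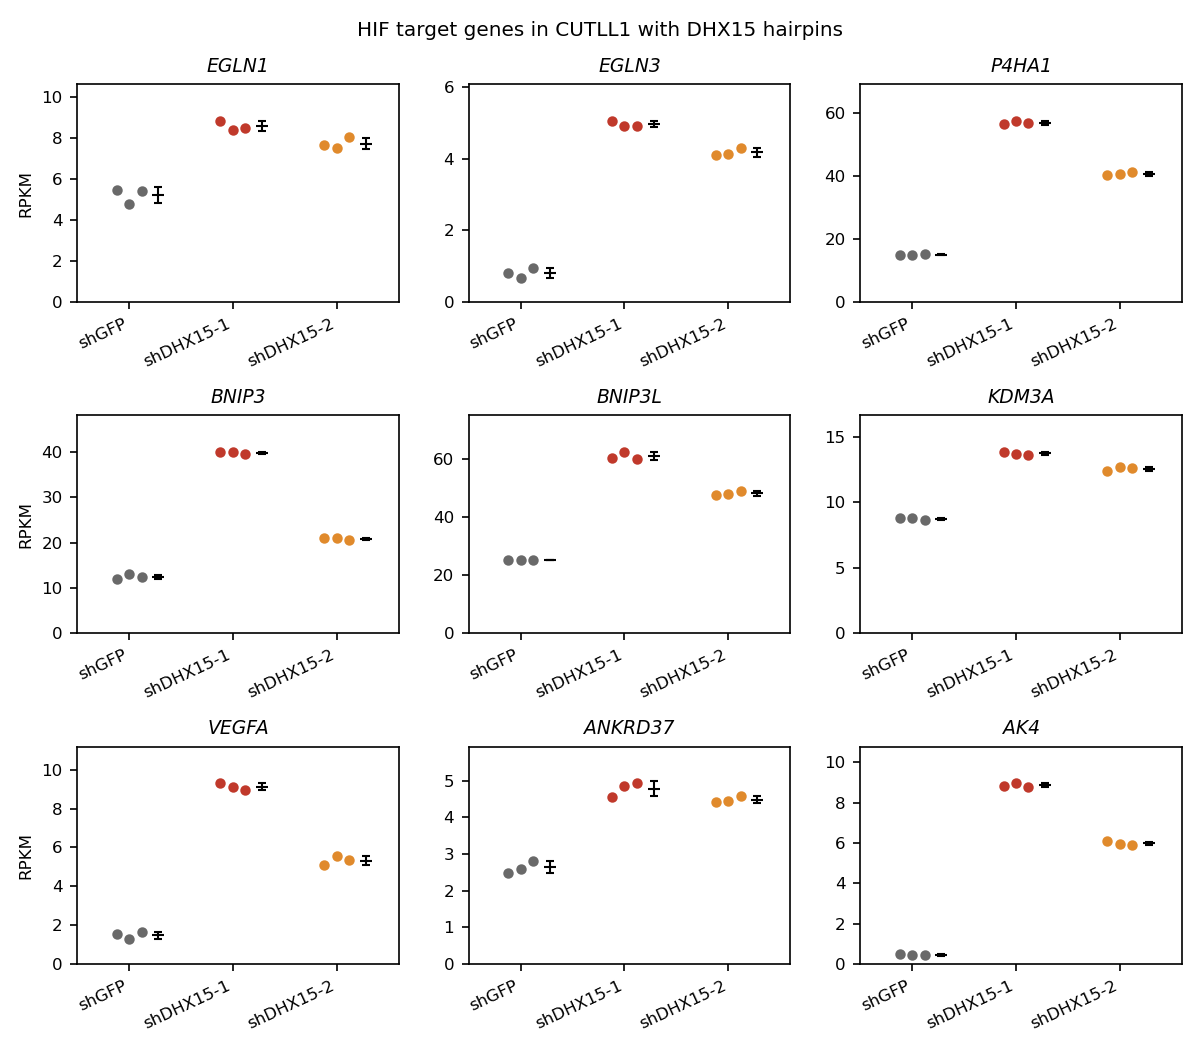
RPKM of 9 HIF target genes in each CUTLL1 library (points, y axis from 0) with shGFP, shDHX15-1 and shDHX15-2, and the group mean with its SD (black, n = 3). Every knockdown library lies above every shGFP library, and for all genes but ANKRD37 the shDHX15-1 libraries lie above the shDHX15-2 libraries. The share of all genes with such a separation of the hairpins was not computed. By limma 37.9% of all genes tested were called lower with shDHX15-2 than with shDHX15-1.

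AK4 changed most. This gene encodes a mitochondrial adenylate kinase, which balances adenine nucleotides. Its level was 0.498, 0.436 and 0.430 RPKM with shGFP, 8.82, 8.99 and 8.80 with shDHX15-1, and 6.08, 5.95 and 5.91 with shDHX15-2. From the lowest level of the 9 genes in shGFP cells, it reached 19.5 and 13.2 times the shGFP mean. The log2 fold changes on the log2(RPKM + 1) scale were 2.76 (SE 0.03, adjusted p = 5.6e-11) and 2.26 (SE 0.03, adjusted p = 3.6e-10), which ranked 5 and 7 from the top of 15022 genes. Since 1 RPKM is added, this scale understates the change of such a low gene, and with 0.1 RPKM added the values were 4.02 and 3.46. AK4 has pseudogene copies, whose reads the authors' counting could split: AK4P1 was listed at 0.59 ± 0.31 RPKM with shGFP, 2.72 ± 0.61 with shDHX15-1 and 2.28 ± 0.57 with shDHX15-2 (SD, n = 3 each).

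The HIF prolyl hydroxylases EGLN1 and EGLN3 rose to different extents. EGLN3 was at 0.820, 0.680 and 0.950 RPKM with shGFP, at 5.07, 4.91 and 4.93 with shDHX15-1, and at 4.10, 4.13 and 4.32 with shDHX15-2. EGLN1 was at 5.48, 4.79 and 5.44 RPKM with shGFP, at 8.85, 8.38 and 8.50 with shDHX15-1, and at 7.66, 7.50 and 8.05 with shDHX15-2. The means were thus 6.08 and 5.12 times the shGFP mean for EGLN3, and 1.64 and 1.48 times for EGLN1. In log2 terms EGLN3 rose by 1.72 and 1.51 (SE 0.05 for both, highest adjusted p = 5.5e-08), and EGLN1 by 0.62 and 0.49 (SE 0.05 for both, highest adjusted p = 2.2e-05). The third enzyme of this kind, EGLN2, is not among the HIF targets listed here and fell with shDHX15-2 by 0.54 (SE 0.03, adjusted p = 7e-07), from 10.99 ± 0.28 to 7.26 ± 0.21 RPKM (SD, n = 3). With shDHX15-1 it stood at 11.1 ± 0.21 RPKM and did not pass (0.01, SE 0.03, adjusted p = 0.71).

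P4HA1 encodes the catalytic subunit of a collagen prolyl hydroxylase, which uses the same iron chemistry on procollagen in the endoplasmic reticulum. Its level was 15.0, 14.8 and 15.3 RPKM with shGFP, 56.3, 57.4 and 56.5 with shDHX15-1, and 40.1, 40.4 and 41.2 with shDHX15-2. The spread within each group was far smaller than the distance between groups, and the rises were 1.85 and 1.37 (SE 0.02 for both, highest adjusted p = 4e-10).

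BNIP3 and BNIP3L encode related receptors of the outer mitochondrial membrane that mark mitochondria for autophagy. BNIP3L had the highest level of the 9 genes in shGFP cells, at 25.3, 25.3 and 25.2 RPKM, and reached 60.2, 62.4 and 59.8 with shDHX15-1 and 47.5, 47.8 and 49.0 with shDHX15-2. BNIP3 was at 11.9, 12.98 and 12.3 RPKM with shGFP, at 40.0, 40.1 and 39.7 with shDHX15-1, and at 20.98, 20.99 and 20.5 with shDHX15-2. BNIP3 therefore rose by 1.61 and 0.70 (SE 0.03 for both) and BNIP3L by 1.23 and 0.90 (SE 0.02 for both), with a highest adjusted p of 1.2e-07. RefSeq names 46 BNIP3 pseudogenes, of which 13 were in the hairpin table. The highest of them, BNIP3P11, stood at 5.65 ± 0.93 RPKM with shGFP and at 4.36 ± 0.60 and 3.91 ± 0.54 with the DHX15 hairpins (SD, n = 3 each).

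VEGFA encodes the secreted growth factor that drives blood vessel formation. It was at 1.55, 1.29 and 1.64 RPKM with shGFP, at 9.32, 9.09 and 8.96 with shDHX15-1, and at 5.08, 5.55 and 5.34 with shDHX15-2. Its log2 fold changes were 2.03 and 1.35 (SE 0.05 for both, highest adjusted p = 1.1e-07), and its mean with shDHX15-1 was 6.13 times that with shGFP.

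KDM3A and ANKRD37 rose least, together with EGLN1. KDM3A encodes a histone demethylase that removes methyl groups from lysine 9 of histone H3. It was at 8.79, 8.79 and 8.66 RPKM with shGFP, at 13.9, 13.7 and 13.6 with shDHX15-1, and at 12.4, 12.7 and 12.6 with shDHX15-2, rises of 0.60 and 0.48 (SE 0.02 for both, highest adjusted p = 1.8e-07). ANKRD37, which encodes a small ankyrin repeat protein, was at 2.49, 2.60 and 2.82 RPKM with shGFP, at 4.55, 4.87 and 4.95 with shDHX15-1, and at 4.41, 4.46 and 4.58 with shDHX15-2. Its rises were 0.67 and 0.59 (SE 0.04 for both, highest adjusted p = 3.6e-06).

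The hairpins differed in the size of the response of most of these genes. DHX15 itself differed between them by −0.04 (95% interval −0.10 to 0.02, limma adjusted p = 0.20), and the sign of that small difference turned with the scaling (0.025 with DESeq2 and 0.029 with edgeR on recovered reads, 0.028 after median centring). In the direct comparison of shDHX15-2 with shDHX15-1, 8 of the 9 HIF targets were lower with shDHX15-2, beside 37.9% of all genes tested. BNIP3 differed most, by −0.91 (SE 0.03, adjusted p = 6e-08), followed by VEGFA with −0.68 (SE 0.05), AK4 with −0.50 (SE 0.03), P4HA1 with −0.47 (SE 0.02) and BNIP3L with −0.33 (SE 0.02). EGLN3 differed by −0.20 (SE 0.05, adjusted p = 0.0093), EGLN1 by −0.13 (SE 0.05, adjusted p = 0.037) and KDM3A by −0.12 (SE 0.02, adjusted p = 0.00092). ANKRD37 differed by −0.08 (95% interval −0.17 to 0.02, adjusted p = 0.15), which did not pass. The differences in BNIP3, VEGFA, AK4, P4HA1 and BNIP3L passed in each of the 17 alternative settings; that in EGLN1 passed in 8 of 17, with adjusted p of 0.12 by edgeR, 0.12 by DESeq2, 0.20 with quantile normalisation and 0.25 after median centring. The EGLN3 difference was lost with a pseudocount of 0.1 RPKM (adjusted p = 0.052) and with quantile normalisation (adjusted p = 0.053), and the KDM3A difference after median centring (adjusted p = 0.074).

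**Figure D2:**
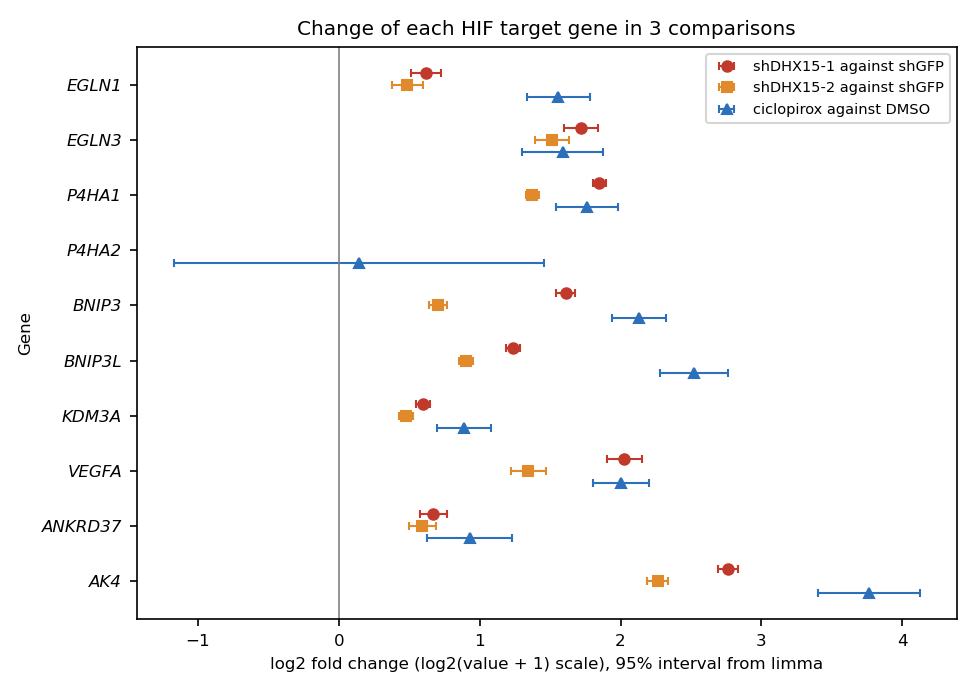
Log2 fold change of each gene on the log2(value + 1) scale (x axis) with its 95% interval from limma, for shDHX15-1 and shDHX15-2 against shGFP and ciclopirox against DMSO. P4HA2, which was measured in the ciclopirox experiment alone here, has an interval from −1.17 to 1.45, and all other points lie to the right of 0.

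Ciclopirox raised 9 of the 10 genes, beside 23.5% of all 16825 genes tested as higher and 25% as lower. The DMSO controls are other libraries than the shGFP controls. The median log2 fold change of the 10 genes was 1.68 and that of all genes tested −0.02. These values are counts divided by a size factor and are not scaled by gene length, so levels are compared within a gene only. AK4 again changed most, from 80.8, 107 and 123 normalised counts with DMSO to 1354, 1439 and 1410 with ciclopirox (3.76, SE 0.16, adjusted p = 1e-07). BNIP3L followed, from 1081, 1191 and 1213 to 6915, 5813 and 7392 (2.52, SE 0.11). BNIP3 went from 1521, 1549 and 1440 to 6684, 6461 and 6613 (2.13, SE 0.09), and VEGFA from 1384, 1286 and 1329 to 5472, 5497 and 5053 (2.00, SE 0.09). In none of these 4 genes did the groups overlap, and of all genes tested 27.4% had every ciclopirox library above every DMSO library. The BNIP3 copy BNIP3P11 stood at 945 ± 144 normalised counts with DMSO and 864 ± 129 with ciclopirox (SD, n = 3 each).

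The hydroxylase genes rose with the iron chelator as well. EGLN1 went from 968, 1036 and 1054 normalised counts to 3010, 2769 and 3249, and EGLN3 from 230, 239 and 243 to 763, 642 and 748. These are rises of 1.56 (SE 0.10, adjusted p = 1.2e-06) and 1.59 (SE 0.13, adjusted p = 5.2e-06). P4HA1 went from 1036, 1061 and 1080 to 3771, 3255 and 3784 (1.76, SE 0.10). Its relative P4HA2, which encodes the other main catalytic subunit, was at 4.83, 16.9 and 14.3 normalised counts with DMSO and 15.3, 16.1 and 6.71 with ciclopirox. Those groups overlapped, and the difference of 0.14 (SE 0.60, limma adjusted p = 0.86) did not pass. At 4 to 17 reads per library, its 95% interval from −1.17 to 1.45 does not exclude a 2-fold change in either direction. KDM3A, at 3118, 3371 and 3278 with DMSO, reached 5724, 6289 and 6093 (0.89, SE 0.09, adjusted p = 1.7e-05). ANKRD37, at 216, 202 and 195 with DMSO, reached 396, 389 and 383 (0.93, SE 0.14, adjusted p = 0.00027). KDM3A and ANKRD37 had the smallest rises of the 9 called. DHX15 RNA itself fell by 0.74 with ciclopirox (SE 0.09, adjusted p = 8.7e-05), from 14498, 16688 and 16311 normalised counts to 9218, 8967 and 10216.

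**Figure D3:**
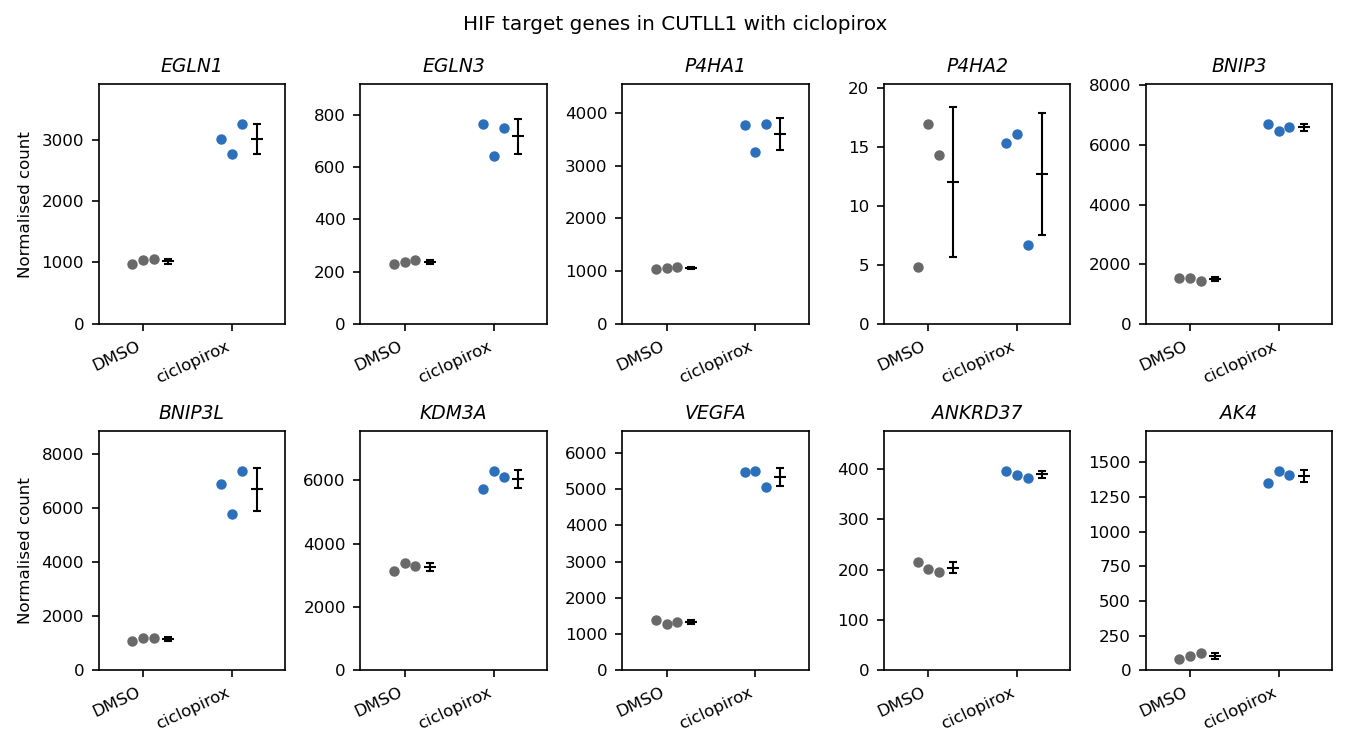
Normalised counts of the 10 genes in each CUTLL1 library (points, y axis from 0) with DMSO and 5 µM ciclopirox, with the group mean and SD (black, n = 3). In P4HA2 the groups overlap, and in the other 9 genes all ciclopirox libraries lie above all DMSO libraries.

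Other HIF targets outside glycolysis mostly moved the same way as the 10 genes. Over the mean of both hairpins, 19 of 24 measured genes of a list of 34 were higher and 2 lower, with a median of 0.43, beside 42.6% of all genes tested as higher and 30.2% as lower. The largest rises were in DDIT4, an inhibitor of mTORC1 signalling (2.78, SE 0.02), the circadian repressor gene BHLHE40 (1.73, SE 0.02) and MIR210HG, the host transcript of a hypoxia-induced microRNA (1.19, SE 0.04). JMJD6 (−0.45, SE 0.03) and ERO1A (−0.33, SE 0.03), an oxidase of the endoplasmic reticulum, fell. With ciclopirox 20 of 27 were higher and 2 lower, with a median of 1.22, beside 23.5% and 25% of all genes tested. ADM, which encodes the peptide hormone adrenomedullin, had 0 reads in all 3 DMSO libraries and reached 118 ± 9.93 normalised counts (SD, n = 3), at least 36.5-fold higher than a floor of 3 reads per library. With genes at 0 in all DMSO libraries set at their bounds the list's median was still 1.22. RAB20, also among the 3 largest rises, went from 2.41 ± 4.18 to 56.2 ± 18.6 normalised counts. JMJD6 (−0.52, SE 0.11) and RSBN1 (−0.38, SE 0.13) fell.

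Glycolytic HIF targets were higher in 21 of 21 cases over both hairpins, beside 42.6% of all genes tested. Their median was 0.69, and the aldolase gene ALDOC (1.66), GPI (1.49) and PFKFB3 (1.10) rose most. With ciclopirox 18 of 19 were higher, beside 23.5% of all genes tested, and HK2 was lower (−0.26, SE 0.09, adjusted p = 0.024). The median was 0.93, and PFKFB4 (4.43), PFKFB3 (2.40) and ENO2 (1.95) led the rises. The median of the 9 genes outside glycolysis over both hairpins was 1.16. The lists were chosen with earlier results known, so none of these counts is independent evidence of a direction.

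**Figure D4:**
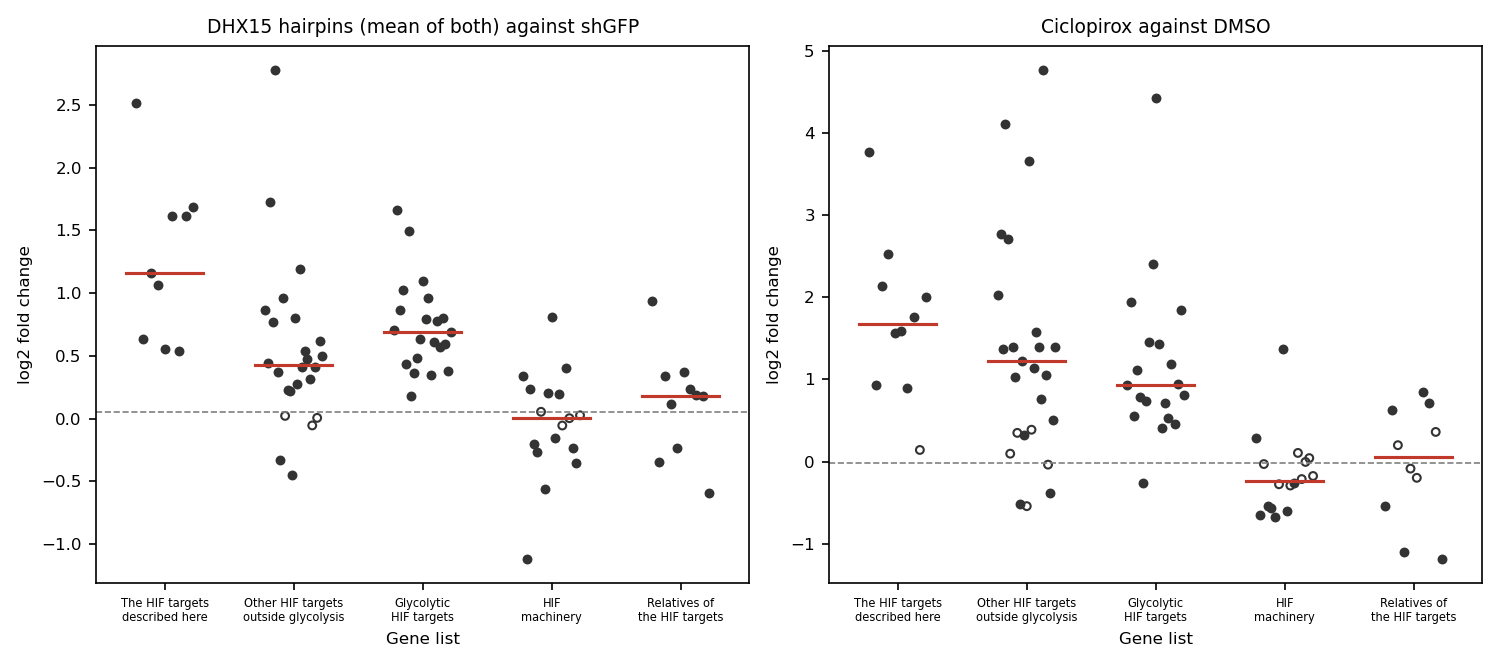
Log2 fold change (y axis) of each gene (points; filled where limma called it, open where not) in 5 lists, for the mean of both hairpins against shGFP (left) and ciclopirox against DMSO (right). Red bars are list medians, 1.16 and 1.68 for the genes described here, and dashed lines mark the medians of all genes tested (0.06 and −0.02); genes at 0 in all DMSO libraries are not drawn on the right.

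The genes that build or restrain HIF did not move together. Of 17 measured over both hairpins, 6 were higher and 7 lower (median 0.00), beside 42.6% and 30.2% of all genes tested. Of 16 measured with ciclopirox, 2 were higher and 6 lower (median −0.23), beside 23.5% and 25% of all genes tested. HIF1A, the main alpha subunit gene, rose from 20.9 ± 0.46 RPKM with shGFP to 24.2 ± 0.36 and 24.2 ± 0.32 with the hairpins (SD, n = 3), a mean log2 change of 0.20 (SE 0.02, adjusted p = 1.4e-05), and fell by 0.61 with ciclopirox (SE 0.16, adjusted p = 0.0083). EPAS1, which encodes the second alpha subunit, fell by 0.56 with the hairpins (SE 0.04) and rose by 1.37 with ciclopirox (SE 0.12). CITED2, an inhibitor that competes with HIF for the coactivators CREBBP and EP300, fell in both experiments, by 1.12 (SE 0.06) and by 0.65 (SE 0.16). ARNT rose in both, by 0.34 (SE 0.03) and 0.29 (SE 0.10), while VHL passed neither over both hairpins nor with ciclopirox (0.03 and −0.18). EGLN2 was not tested in the ciclopirox experiment.

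Relatives of the 10 genes that are not known mainly as HIF targets were measured for comparison. Over both hairpins 7 of 10 were higher and 3 lower (median 0.18), beside 42.6% and 30.2% of all genes tested. With ciclopirox 3 of 10 were higher and 3 lower (median 0.06), beside 23.5% and 25% of all genes tested. AK1, which encodes a cytosolic adenylate kinase, rose by 0.94 (SE 0.06) with the hairpins. VEGFC fell by 0.59 (SE 0.06) and 1.18 (SE 0.21) in the 2 experiments. BNIP2 fell by 0.23 (SE 0.02) and 1.10 (SE 0.19).

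None of the 10 genes held a DHX15 RIP peak. The authors' deposited list had 4499 peaks, and 2926 of the 12020 genes tested with the hairpins that matched a RefSeq span held at least 1 of them, or 24.3%. Peaks were matched by position on either strand, so a peak antisense to a gene was counted as well, here and in the lists below. The count for the 10 genes was 0 under each alternative, with fold enrichment of at least 2 (4.8% of all genes), an FDR under 0.001 (15.3%) or peaks wholly inside the gene (22.2%). The median level with shGFP was 5.24 RPKM for the 9 listed genes, 7.12 RPKM for genes with a peak and 7.24 RPKM for all genes matched. The peak nearest to any of them lay 10.7 kb from BNIP3, in PPP2R2D (chr10:131956596-131956971, authors' fold enrichment 3.29), and the next 28.4 kb from P4HA1, in NUDT13. VEGFA lay 142.9 kb from its nearest peak and the other 7 genes between 256.2 kb and 2209.6 kb. In the other lists, 5 of 21 glycolytic targets held peaks (SLC2A3, PFKFB3, PFKFB4, ENO2 and SLC16A3), as did 5 of 33 other targets outside glycolysis, 2 of 19 machinery genes (EPAS1 and CREBBP) and 3 of 12 relatives. One list exists for all RIP libraries, so these counts have no replicate check. Its header names no build, and positions were read against GRCh38.p14, in whose gene spans 92.2% of peaks lay.

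In the thymus, several of the genes had lower levels in the DHX15-KO library, the opposite direction to CUTLL1. Each genotype has 1 library, so there is no test, and intervals cover counting error only. The DHX15-flox library had 8884 barcodes after filtering, with a median of 3696 UMIs, and the DHX15-KO library 7395, with a median of 7080. Among all deposited barcodes, before filtering, 17 occurred in both libraries. In barcodes that resembled resting double positive thymocytes by Rag1, Rag2, Cd4, Cd8a and related markers, Dhx15 was at 173 CPM (the gene's UMIs scaled by all UMIs of those barcodes) with DHX15-flox and 112 with DHX15-KO, a ratio of 0.644 (95% interval 0.604 to 0.686). UMIs from outside the deleted exons would not report the deletion. These 5600 DHX15-flox and 2750 DHX15-KO barcodes came mostly from different clusters (1, 3 and 11 against 2 and 7 of 22), although the HIF targets were left out of the clustering.

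Ankrd37 showed the lowest ratio there, from 22.4 CPM (20.3 to 24.7) with DHX15-flox to 9.63 (7.97 to 11.5) with DHX15-KO, a ratio of 0.429 (0.347 to 0.527). P4ha1 went from 31.2 (28.7 to 33.8) to 16.2 (14.01 to 18.6), a ratio of 0.519, and Egln3 from 24.5 (22.3 to 26.9) to 13.7 (11.7 to 15.9), a ratio of 0.557. Kdm3a went from 72.7 to 56.6, a ratio of 0.779 (0.710 to 0.853). Egln1 (ratio 0.885, 0.820 to 0.956) and Bnip3l (0.937, 0.897 to 0.979) were close to 1, and without mitochondrial and ribosomal protein genes in the total they were 0.978 and 1.04, so that Bnip3l changed direction. Bnip3 had a ratio of 1.23 (0.946 to 1.60), and of 1.36 (1.05 to 1.76) without mitochondrial and ribosomal protein genes in the total. Vegfa, P4ha2 and Ak4 gave 22, 7 and 1 UMIs with DHX15-flox and 20, 8 and 1 with DHX15-KO, too few to compare. Of the 10 genes, 6 thus had an interval wholly under 1 and 0 wholly over 1, beside 25.4% and 22.8% of the 14394 genes with a UMI in both libraries. With the other total 4 lay under 1 and 1 over, beside 16.4% and 32.4% of 14273 genes. These shares, like those over whole libraries below, include genes with few UMIs and so wide intervals. They were not matched to the 10 genes by level.

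**Figure D5:**
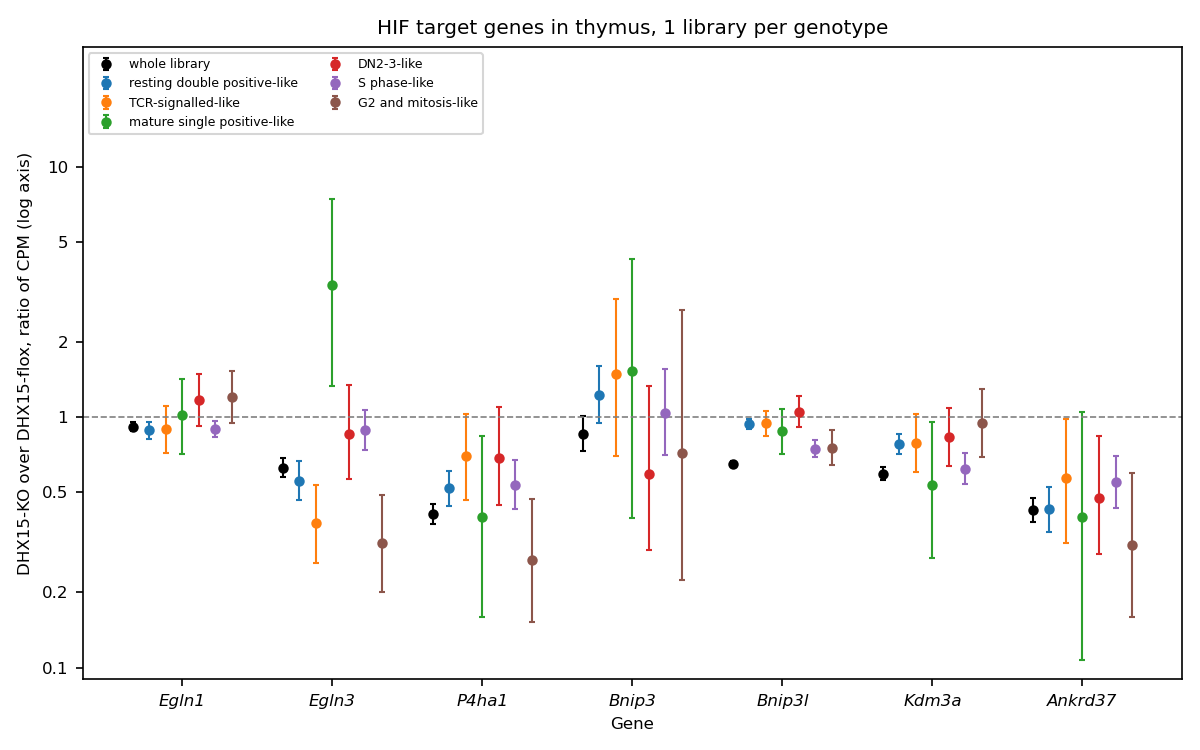
Ratio of CPM, DHX15-KO over DHX15-flox (log y axis, 95% exact intervals for counting error), for 7 genes in the whole library and 6 classes of barcodes, with 1 library per genotype. P4ha1 and Ankrd37 lie under 1 in each class shown, with intervals that include 1 in some, and Egln3 lies under 1 in all but the mature single positive-like class.

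In other thymocyte classes, too, the libraries often fell into different clusters. All 1118 DHX15-flox TCR-signalled-like barcodes were in cluster 4, and 261 of 337 DHX15-KO ones in cluster 14, which held 0 from DHX15-flox. Of 631 DHX15-flox S phase-like barcodes 603 were in cluster 10, led by Nusap1, Birc5, Top2a, Mki67 and histone genes, while all 866 from DHX15-KO were in cluster 9. Of 123 DHX15-flox DN2-3-like barcodes 97 were in cluster 18, and all 1146 from DHX15-KO in cluster 5. The ratios in these 3 classes therefore compare different clusters. In TCR-signalled-like barcodes Egln3, at its highest level of any class compared, went from 58.3 to 22.1 CPM, a ratio of 0.380 (0.262 to 0.535). Ankrd37 had a ratio of 0.572 (0.313 to 0.983) there. In barcodes in G2 and mitosis Egln3 went from 35.1 to 10.98, a ratio of 0.313 (0.201 to 0.486). P4ha1 went from 23.9 to 6.43 (0.269, 0.152 to 0.472) and Ankrd37 from 16.4 to 5.09 (0.310, 0.159 to 0.600), and Bnip3l had a ratio of 0.756 (0.644 to 0.890). S phase-like barcodes gave ratios of 0.537 for P4ha1, 0.551 for Ankrd37, 0.622 for Kdm3a, 0.749 for Bnip3l and 0.895 for Egln1. Each of these had an interval under 1, while Egln3 was at 0.886 (0.740 to 1.06). In DN2-3-like barcodes, where Dhx15 was 153 and 134 CPM (ratio 0.881, 0.769 to 1.01), Ankrd37 alone had an interval under 1 (0.477, 0.283 to 0.841). Mature single positive-like barcodes, 65 of them in the DHX15-KO library, had P4ha1 at 0.400 (0.159 to 0.837) and Kdm3a at 0.537 (0.274 to 0.952). Egln3 was at 3.36 (1.34 to 7.44) there, on 8 UMIs in the DHX15-KO library. Myeloid-like barcodes were few and shallow, with a median of 882 UMIs with DHX15-flox and 829 with DHX15-KO. Differences between classes were not tested, and the share of all genes with an interval under 1 was not computed for these classes.

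Over whole libraries 6 genes had a ratio interval under 1, beside 36.6% of 16771 genes, from Ankrd37 at 0.426 and P4ha1 at 0.410 to Egln1 at 0.915, which was 1.02 without mitochondrial and ribosomal protein genes. Vegfa (1.77, 1.47 to 2.15) and Ak4 (2.32, 1.43 to 3.91) had intervals over 1, beside 26.2% of all genes, on 151 and 22 UMIs with DHX15-flox. Without the 5% of barcodes with the most UMIs Vegfa was at 2.82 (2.15 to 3.75), and Ak4, on 2 UMIs with DHX15-flox and 51 with DHX15-KO, at 15.9 (4.17 to 134). The make-up of the libraries differed as well: DN2-3-like barcodes were 1.38% of DHX15-flox and 15.5% of DHX15-KO barcodes, and resting double positive-like barcodes 63.0% and 37.2%. Vegfa was at 11.9 and 9.94 CPM in DN2-3-like barcodes, against 1.16 and 1.62 in resting double positive-like barcodes, in the DHX15-flox and DHX15-KO libraries. Within DN2-3-like and S phase-like barcodes its ratio was 0.833 (0.510 to 1.43) and 0.993 (0.755 to 1.31).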

How the data were processed

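Values were used as deposited. The hairpin table holds RPKM, and the ciclopirox table a normalised signal (gene counts divided by a size factor), a log2 fold change and p-values, all as deposited by the authors. The peak list gives a fold enrichment ratio, p-values and a score per peak, as deposited by the authors. The thymus matrices hold whole UMI counts. Per the file headers they were written by Cell Ranger 6.0.1. Per the submitters' processing notes, STAR (2.7.5c and 1 further version), DESeq2 1.32.0, Cell Ranger 6.0.2, Scanpy 1.7.1 and the genome builds hg38, hg19 and mm10 were used, with no role stated. The counting step, its strand setting and the peak caller were not given in the sources used here. Deposited p-values were not used as a test.

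Limma 3.58.1 (empirical Bayes with trend, R 4.3.3) was fitted to log2(RPKM + 1) over 9 libraries for 15022 genes at 1 RPKM or more in at least 3 libraries, and to log2(normalised count + 1) over 6 libraries for 16825 genes at 10 or more in at least 3. P-values were two-sided and adjusted by Benjamini-Hochberg over all genes tested, called under 0.05. Whole reads were recovered within 0.01 reads for 99.98% of hairpin genes above 0 and 100% of ciclopirox values, and tested with edgeR 4.0.16 and DESeq2 1.42.0 as alternatives (11013 and 10808 genes called over both hairpins, 8167 and 8420 with ciclopirox). Thymus barcodes with at least 300 genes and at most 10% mitochondrial UMIs were clustered together (Leiden, 2000 variable genes, 30 components), without the 10 genes. No doublet caller was run, and leaving out the 5% of barcodes with the most UMIs was an alternative. Poisson and ratio intervals are exact, at 95%. The limma fit and the exact ratio intervals of the thymus were tested on simulated data. The barcode filter, the clustering and the naming of classes were not.

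The genes, lists and tests were chosen with earlier results of these data known. Named were DHX15, the 10 genes, and up to 3 largest called rises and falls per list and comparison; AK1, ARNT, VHL, HIF1A, EGLN2, the pseudogenes and the nearest peaks were added after their values were seen. Some named genes are not reported here. Replicate numbers did not pair the samples.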

Additional observations from a re-analysis of the deposited data

Results flagged for a closer look

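The 2 DHX15 hairpins differed in their effect on 8 of the 9 HIF targets by limma's direct comparison of the hairpins, which share the shGFP controls. The effect of shDHX15-2 minus that of shDHX15-1 was −0.91 for BNIP3, −0.68 for VEGFA, −0.50 for AK4, −0.47 for P4HA1, −0.33 for BNIP3L, −0.20 for EGLN3, −0.13 for EGLN1 and −0.12 for KDM3A on the log2 scale. In the same comparison 37.9% of all genes tested were lower with shDHX15-2. DHX15 itself differed by −0.04 (adjusted p = 0.20).

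In resting double positive-like thymus barcodes 6 genes had a DHX15-KO over DHX15-flox ratio interval wholly under 1, beside 25.4% of all genes with a UMI in both libraries. The rule that flagged them required every CUTLL1 knockdown library to lie above every shGFP library, which all 9 genes listed there met. For each hairpin alone, the same held for 46.4% of all genes tested with shDHX15-1 and 37.8% with shDHX15-2. The share for both hairpins at once was not computed. The ratios were 0.429 for Ankrd37, 0.519 for P4ha1, 0.557 for Egln3, 0.779 for Kdm3a, 0.885 for Egln1 and 0.937 for Bnip3l. Without mitochondrial and ribosomal protein genes in the total, Egln1 was at 0.978 (0.906 to 1.06) and Bnip3l turned to 1.04. The difference between thymus and CUTLL1 was not tested, since the thymus has 1 library per genotype and the systems differ in species, cell type and method. Dixon's test for outlying samples was not applied.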

How the results depend on the processing

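Of 733 alternative values of the genes' log2 fold changes, 716 kept direction and call, 12 kept direction and lost the call, and 5 turned. All 12 losses concern the hairpin-against-hairpin differences of EGLN1, EGLN3 and KDM3A, which were −0.06 for EGLN1 and −0.05 for KDM3A after median centring, and −0.24 with a pseudocount of 0.1 RPKM and −0.12 with quantile normalisation for EGLN3. EGLN1 also lost its call with each shDHX15-1 library and with shDHX15-2 library 1 or 2 left out (−0.16 to −0.11 over all such fits). Quantile normalisation turned the uncalled values of ANKRD37 between hairpins (0.0088) and of P4HA2 with ciclopirox (−0.23), and P4HA2 ran from −0.36 to 0.51 with single libraries left out. DHX15 between hairpins turned to 0.025 with DESeq2, 0.029 with edgeR and 0.028 after median centring.

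Median centring moved the share of higher calls among all called genes from 61.1% to 46.0% with shDHX15-1, from 58.5% to 46.2% over both hairpins and from 38.0% to 54.1% between hairpins, and the median of all genes from 0.09 to −0.02 with shDHX15-1. With a replicate block 11106, 10858, 9034 and 8436 genes were called with shDHX15-1, over both hairpins, between hairpins and with ciclopirox (main 11162, 10944, 9177 and 8157), and no call of the 10 genes changed. Same-numbered libraries correlated by −0.001 to 0.095 (hairpins) and −0.11 to 0.16 (ciclopirox). Genes with a RIP peak numbered 577 at a fold of at least 2 and 1842 at an FDR under 0.001.

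In the thymus 126 of 141 ratios stayed, 13 moved and 2 turned (Egln1 over whole libraries 1.02 and Bnip3l in resting double positive-like barcodes 1.04, without mitochondrial and ribosomal protein genes). With that total, 1 gene lay under 1 in TCR-signalled-like and 1 in mature single positive-like barcodes, and 1 lay over 1 in barcodes in G2 and mitosis and 1 in resting double positive-like barcodes. Without the 5% of barcodes with the most UMIs, 3 lay under 1 in DN2-3-like barcodes. The share of all genes was not computed for classes other than the resting double positive-like one, so the counts there have no background. The causes were not tested. The mean of both hairpins has no fit with only the groups compared. Depth limits P4HA2, and P4ha2, Ak4 and Vegfa in most thymus classes.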
